A study of Mus musculus with 6 samples.

Results

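The complement genes examined here were 9 components and regulators of the complement system in mouse cartilage chondrocytes. They were chosen by name out of 22032 genes in the deposited matrix: *C1ra*, *C1s1*, *C3*, *C4b*, *Cfb*, *Cfd*, *Serping1*, *Cd55* and *Cr1l*. All 9 were found. RNA was sequenced from 3 embryonic samples, taken at embryonic day 16.5 by the methods (the labels write 16.5 wks), and from 3 adult samples of 2 months, for which the methods name male B6 animals. No sample carried an engineered allele or a treatment in the labels, and the strain of the embryos and the number of animals per sample are not given in the sources used here. All cells were sorted as negative for CD31, CD45, Ter119 and ALP (alkaline phosphatase) and positive for BMPR1B, a bone morphogenetic protein receptor, so blood and endothelial cells were gated out at both stages.

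Complement is a cascade of plasma and tissue proteins that tags surfaces for clearance and can punch holes in membranes. In the classical pathway the recognition molecule C1q carries the proteases C1r and C1s, of which C1s cleaves C4 and C2. In the alternative pathway factor D (*Cfd*) cleaves factor B (*Cfb*) once it is bound to C3b, and both pathways meet in the cleavage of C3. C1 inhibitor (*Serping1*) blocks C1r and C1s, while CD55 and CR1L (Crry), proteins of the cell surface, take apart or inactivate the C3-cleaving enzymes on the cell that carries them. The liver makes most plasma complement, and connective tissue cells including chondrocytes also transcribe parts of it.

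Values are in TPM, a share of all transcripts corrected for transcript length, deposited as log2(TPM + 1). The 9 genes together held 137 to 172 TPM in the embryonic samples and 459.9 to 511 TPM in the adult samples, or 0.0137% to 0.0172% and 0.046% to 0.0511% of all TPM. In bulk samples, fewer cells of a type and less RNA per cell cannot be told apart. TPM keeps no sequencing depth. The paper states that its supplement gives read totals, but these were not used here. Error is read from how far the 3 samples per stage differ. In the whole matrix, 6 zeros stood where both other samples from that stage reached 20 TPM, so a listed 0 need not mean an absent transcript.

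The difference between stages was fitted with limma for the 13125 genes whose mean reached 1 TPM. A gene counted as called at a Benjamini-Hochberg adjusted p under 0.05. Of the 9 genes 8 could be tested, and *C3* reached the mean of 1 TPM only through its adult values. *C1ra*, *C3*, *C4b*, *Cfb* and *Cr1l* rose in the adult samples, *Cd55* fell, and *C1s1* and *Serping1* did not pass the test. Over all genes tested 45.3% were called, 23.9% higher and 21.4% lower in the adult samples, and 56.5% had stages that did not overlap. The median log2 fold change (log2FC, adult minus embryonic) was 1.97 over the 8 genes and 0.16 over all genes. The latter was 0.03 under scaling by the median of ratios and 0.25 when the 20 highest genes were left out of the total.

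**Figure D1:**
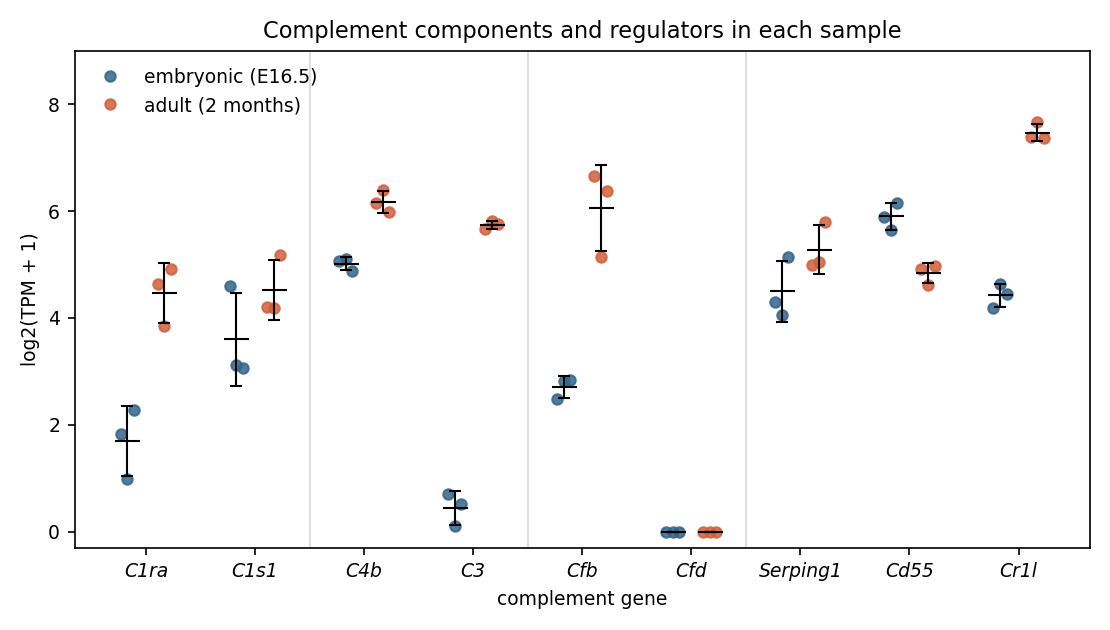
Level of the 9 complement genes, as log2(TPM + 1) on the vertical axis, in the 3 embryonic (blue) and 3 adult (orange) samples, with genes ordered as C1 proteases, C4 and C3, alternative pathway proteases and regulators. Black bars give the mean and SD of each stage (n = 3). *C3* moves from a mean of 0.45 to 5.75, *Cd55* is the gene that lies lower in all adult samples, and *Cfd* lies at 0 throughout.

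*C3* encodes the central component on which all pathways converge. It (ENSMUSG00000024164) lies on chromosome 17 of GRCm38 from 57203970 to 57228136. Embryonic values were 0.63, 0.0742 and 0.443 TPM, adult values 49.7, 55.3 and 53.3 TPM. The adult samples thus lay close together and far above every embryonic sample. On the log2(TPM + 1) scale the level went from 0.45 ± 0.31 (SD, n = 3) to 5.75 ± 0.08, a log2FC of 5.30 (SE 0.336, limma, adjusted p = 8.5e-06), rank 36 among all genes tested. With a pseudocount of 0.1 in place of 1 the log2FC was 7.01, so its size rests on how the low embryonic values are treated. In mean level *C3* went from rank 13938 of 22032 genes in the embryonic samples to rank 3656 in the adult samples.

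The *C3* promoter is shown because *C3* moved most among the 9 genes. RefSeq promoter windows for GRCm38.p6 were matched by symbol for 6 of the 9 genes (*C1ra*, *C1s1*, *C3*, *Cfd*, *Cd55* and *Cr1l*), with 7 windows in all. The 250 bases before the *C3* start site, chr17:57228137-57228386 on the minus strand, run 5′ to 3′ as follows, with capitals marking a match to a C/EBP-type motif.
C3: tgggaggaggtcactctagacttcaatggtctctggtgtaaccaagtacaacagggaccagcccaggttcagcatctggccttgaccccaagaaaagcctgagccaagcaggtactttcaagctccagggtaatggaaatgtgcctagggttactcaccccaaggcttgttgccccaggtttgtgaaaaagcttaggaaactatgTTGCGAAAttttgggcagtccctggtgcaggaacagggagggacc
Motifs of 4 types were searched on both strands of these windows: C/EBP-type (TTGCNNAA), GAS-type (TTCNNNGAA), ISRE-type (TTTC, any 2 bases, TTTC) and kB-type (GGG, any 2 bases, TTTCC). Of all 32851 windows 9.56%, 7.02%, 2.98% and 1.41% held a match in that order. The match in *C3* begins 45 bases before the start site. The only other match in the 7 windows was also C/EBP-type, 242 bases before one of the 2 start sites of *C1s1*. A match is a description of letters and not evidence of binding.

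*C4b* encodes C4, whose cleavage fragment joins C2 in the C3-cleaving enzyme of the classical pathway. It (ENSMUSG00000073418) lies on chromosome 17 from 34728380 to 34743882. Embryonic values were 32.4, 33.5 and 28.3 TPM, adult values 70.0, 82.9 and 62 TPM. The stages did not overlap, and C4 transcript was present at both. The log2FC was 1.16 (SE 0.179, limma, adjusted p = 0.00104), a ratio of mean TPM of 2.28. Of the 50-base windows in *C4b* transcripts, the length of a read in the methods, 34.6% also occur in *C4a*, a near-identical neighbor that was not analysed here, so the split of reads between these 2 genes is uncertain.

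*C1ra* and *C1s1* encode the protease partners that are bound to C1q, and they lie next to each other on chromosome 6 (124512405 to 124523443 for ENSMUSG00000055172 and 124530345 to 124542359 for ENSMUSG00000038521). *C1ra* had embryonic values of 2.55, 0.988 and 3.84 TPM and adult values of 23.9, 13.4 and 29.4 TPM. All adult values were above all embryonic ones, and the log2FC was 2.77 (SE 0.457, limma, adjusted p = 0.00145). *C1s1* had embryonic values of 23.2, 7.74 and 7.39 TPM and adult values of 17.4, 17.2 and 35 TPM. Here the first embryonic sample lay among the adult ones, and the difference of 0.92 did not pass the test (95% interval -0.14 to 1.98, limma, adjusted p = 0.139). Without embryonic replicate 1 it was 1.42 (adjusted p = 0.032; 0.032 to 0.368 across all alternatives).

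Taken within each sample, the log2 level of *C1ra* minus that of *C1s1* was -2.77, -2.14 and -0.79 for embryonic and 0.43, -0.33 and -0.24 for adult samples. The transcripts of these proteases thus lay within 0.43 of each other in the adult samples, while *C1s1* exceeded *C1ra* in each embryonic sample. The shift of 1.85 had a two-sided exact permutation p of 0.1, the smallest that 3 samples against 3 allow. Of the windows of *C1ra*, 48% also occur in *C1rb*, and of those of *C1s1*, 21.8% in *C1s2*. *C1rb* held at most 0.239 TPM in any sample and *C1s2* was listed at 0 in all 6, and how reads were divided within each pair is uncertain.

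*Cfb* (ENSMUSG00000090231) encodes factor B, the protease of the alternative pathway enzyme, and lies on chromosome 17 from 34856374 to 34862518. It had embryonic values of 4.57, 6.08 and 6.17 TPM and adult values of 99.97, 34.2 and 82.1 TPM. The second adult sample held less than the other two and still lay above every embryonic sample. The log2FC was 3.34 (SE 0.39, limma, adjusted p = 2.3e-04), rank 165 of all genes tested, and it was 3.80 without adult replicate 2. Of the windows of *Cfb*, 73% also occur in *Gm20547*, an overlapping gene model that was not analysed here.

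*Cfd* (ENSMUSG00000061780), on chromosome 10 from 79890853 to 79892655, encodes factor D, the protease that activates factor B. It was listed at 0 in all 6 samples and could not be tested. None of its 919 windows of 50 bases occurs in another gene. The matrix lists 5085 genes at 0 in all 6 samples.

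*Serping1* (ENSMUSG00000023224) encodes C1 inhibitor and lies on chromosome 2 from 84765387 to 84775444. It had embryonic values of 18.6, 15.7 and 34.3 TPM and adult values of 31, 31.9 and 54.8 TPM. The third embryonic sample lay among the adult ones. The difference of 0.78 had a 95% interval of 0.02 to 1.55 before adjustment and did not pass the test over all genes (limma, adjusted p = 0.0886). Without embryonic replicate 3 it was 1.10 (adjusted p = 0.0331; 0.0288 to 0.265 across all alternatives).

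*Cd55* and *Cr1l* encode complement regulators of the cell surface and went in opposite directions. *Cd55* (ENSMUSG00000026399), on chromosome 1 from 130439027 to 130462744, had embryonic values of 58.5, 49.4 and 70.3 TPM and adult values of 29.1, 23.7 and 30.6 TPM. Each embryonic value exceeded each adult one, with a log2FC of -1.06 (SE 0.202, limma, adjusted p = 0.00306). *Cr1l* (ENSMUSG00000016481), on the same chromosome from 195097382 to 195131586, had embryonic values of 17.3, 23.8 and 20.8 TPM and adult values of 166, 201 and 164 TPM. The adult values were above all embryonic ones by a wide margin, with a log2FC of 3.05 (SE 0.177, limma, adjusted p = 5.2e-06).

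Within a sample, the log2 level of *Cr1l* minus that of *Cd55* was -1.70, -1.02 and -1.71 for embryonic and 2.47, 3.04 and 2.39 for adult samples. *Cd55* was thus the more abundant transcript in every embryonic sample and *Cr1l* in every adult sample. The shift of 4.11 had a two-sided exact permutation p of 0.1, again the smallest possible, and both pairs of genes were chosen for this test after their values were seen. *Cd55* made up 36% to 41% of the summed TPM of the 9 genes in embryonic but 5.15% to 5.98% in adult samples. *Cr1l* went from 11% to 17.3% in the embryonic to 32.1% to 43.8% in the adult samples.

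The promoters of these regulators are shown side by side because the genes moved in opposite directions. The windows are the 250 bases before the start site, 5′ to 3′, chr1:130462745-130462994 and chr1:195131571-195131820 of GRCm38.p6, both on the minus strand, in lower case since neither holds a match to the motifs searched.
Cd55: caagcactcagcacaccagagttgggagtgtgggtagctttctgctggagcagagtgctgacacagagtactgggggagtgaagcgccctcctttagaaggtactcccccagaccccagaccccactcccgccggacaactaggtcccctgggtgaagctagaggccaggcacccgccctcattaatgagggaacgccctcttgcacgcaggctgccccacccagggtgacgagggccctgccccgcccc
Cr1l: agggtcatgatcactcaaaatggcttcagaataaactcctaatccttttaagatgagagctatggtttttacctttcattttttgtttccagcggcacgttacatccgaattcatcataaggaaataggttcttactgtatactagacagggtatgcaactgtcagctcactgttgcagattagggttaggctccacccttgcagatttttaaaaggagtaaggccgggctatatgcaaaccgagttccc
The *Cd55* window has a GC content of 64% with 8 CpG dinucleotides, and the *Cr1l* window one of 41.6% with 5. Over all windows the medians were 52.4% and 6.

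By mean level the embryonic order was *Cd55* (59.4 TPM), *C4b* (31.4), *Serping1* (22.8), *Cr1l* (20.6), *C1s1* (12.8), *Cfb* (5.6), *C1ra* (2.46) and *C3* (0.382). The ranges of *C4b*, *Serping1*, *Cr1l* and *C1s1* overlapped from each to the next, while each other neighboring pair was separate. The adult order was *Cr1l* (177 TPM), *Cfb* (72.1), *C4b* (71.7), *C3* (52.7), *Serping1* (39.2), *Cd55* (27.8), *C1s1* (23.2) and *C1ra* (22.2). In the adult samples *Cr1l* stood apart at the top. Between genes next to each other in this order, *Cfb* overlapped *C4b*, *C3* overlapped *Serping1*, and *Cd55* overlapped *C1s1* as *C1s1* did *C1ra*. Genes further apart in the order also overlapped. *Cfb* (34.2 to 99.97 TPM) spanned the range of *C3* (49.7 to 55.3) and overlapped that of *Serping1* (31 to 54.8).

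The rest of the complement system was read through 42 other genes, of which 41 were found and 14 could be tested. In the adult samples 7 rose and 0 fell by limma, against 23.9% and 21.4% of all genes tested, with 7 and 0 also by p under 0.05 before adjustment. Their median log2 fold change was 0.87. The count of 7 became 4 without embryonic replicate 1, without embryonic replicate 2 or without adult replicate 3. *C1qb*, *C5ar1*, *C5ar2*, *Cd46*, *Cfp* and *Itgam* reached a mean of 1 TPM only through the adult samples. Of the 27 genes not tested, 10 were listed at 0 in all 6 samples and no value exceeded 2.4 TPM.

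Of the regulators in the fluid phase, *Clu* rose. It encodes clusterin, an abundant secreted chaperone that also blocks the terminal complex. It had embryonic values of 50.9, 53.6 and 52.9 TPM and adult values of 2927, 5656 and 3643 TPM (log2FC 6.20, SE 0.215, limma, adjusted p = 3.5e-07). In mean level *Clu* ranked 18 of all genes in the adult samples and 3575 in the embryonic samples. *Cfi*, encoding factor I, the protease that inactivates C3b and C4b, was listed at 0 throughout. *C4bp* and *Vtn* held at most 1.5 and 2.4 TPM.

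Of the other regulators of the cell surface, *Cd46* had embryonic values of 0.705, 0.447 and 0.0247 TPM and adult values of 6.75, 3.05 and 5.03 TPM (log2FC 2.08, limma, adjusted p = 0.00771), and its log2FC was 3.66 with a pseudocount of 0.1. *Cd59a*, which encodes a blocker of the terminal pore, had embryonic values of 1.89, 0.148 and 3.53 TPM and adult values of 3.33, 16.2 and 13.8 TPM. Its stages overlapped, and its log2 fold change of 2.07 passed narrowly (limma, adjusted p = 0.0361). It did not pass without embryonic replicate 1 (adjusted p = 0.0788), embryonic replicate 2 (0.126), adult replicate 2 (0.119) or adult replicate 3 (0.106), nor with a pseudocount of 0.1 (0.0601), without the filter (0.0717) or with eBayes without trend (0.0573). The lowest value over the alternatives was 0.0152. *Cd59b* had a difference of 0.17 (limma, adjusted p = 0.874), and *Cd55b*, the second mouse *Cd55* gene, held at most 0.119 TPM.

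Receptors for the C5 fragment were low and higher in the adult samples. *C5ar1* was listed at 0 in each embryonic sample, and its adult values were 3.55, 1.2 and 5.35 TPM (limma, adjusted p = 0.0157). *C5ar2* had embryonic values of 0.047, 0.0366 and 0.887 TPM and adult values of 4.73, 6.57 and 4.28 TPM (log2FC 2.27, limma, adjusted p = 0.00472), and its log2FC was 4.27 with a pseudocount of 0.1. The C3a receptor gene *C3ar1* held at most 1.45 TPM. *Itgam*, the alpha chain of complement receptor 3 on myeloid cells, had embryonic values of 0.399, 0.573 and 1.04 TPM and adult values of 18.2, 1.37 and 12.1 TPM (log2FC 2.35, limma, adjusted p = 0.0308). Its beta chain gene *Itgb2* held at most 1.55 TPM. The *Itgam* call was lost without embryonic replicate 1 (adjusted p = 0.0924), embryonic replicate 2 (0.0881), embryonic replicate 3 (0.0657), adult replicate 1 (0.104) or adult replicate 3 (0.0933), without the filter (0.0589) and with eBayes without trend (0.0507). The lowest value was 0.00194.

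Most recognition molecules and terminal components were too low to test. *C1qa* was listed at 0 in all 6 samples and *C1qc* at no more than 0.0994 TPM, and *C1qb* was at 0.672 TPM in the first embryonic and 5.58 TPM in the first adult sample and at 0 in the other samples. The mannose-binding lectin genes *Mbl1* and *Mbl2* were listed at 0 throughout. *Masp1*, a protease of the lectin pathway, had a difference of 1.09 (limma, adjusted p = 0.126), and without adult replicate 1 it was 1.52 (adjusted p = 0.0387, range 0.0387 to 0.287). *Colec12*, a scavenger receptor with a collectin domain, had embryonic values of 111, 118 and 133 TPM and adult values of 177, 148 and 161 TPM (log2FC 0.42, limma, adjusted p = 0.0328). That call was lost under scaling by the median of ratios (log2FC 0.28, adjusted p = 0.132) and without embryonic replicate 1 (adjusted p = 0.111), embryonic replicate 2 (0.0846), adult replicate 1 (0.0765) or adult replicate 3 (0.0562), and also with eBayes without trend (0.102) or the replicate block (0.0712). The lowest value was 0.0137.

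*C2*, the partner of C4, did not pass the test (difference 0.05, 95% interval -1.56 to 1.67, limma, adjusted p = 0.956), with 0.0925 to 3.45 TPM in the embryonic and 0 to 2.24 TPM in the adult samples. *Hc*, which encodes C5, had embryonic values of 0, 8.07 and 3.51 TPM and adult values of 2.46, 0 and 1.21 TPM (difference -0.81, limma, adjusted p = 0.459). The genes *C6*, *C7*, *C8a*, *C8b*, *C8g* and *C9* of the membrane pore held at most 1.47 TPM in any sample. Transcripts of the terminal pore were thus at most low at both stages.

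**Figure D2:**
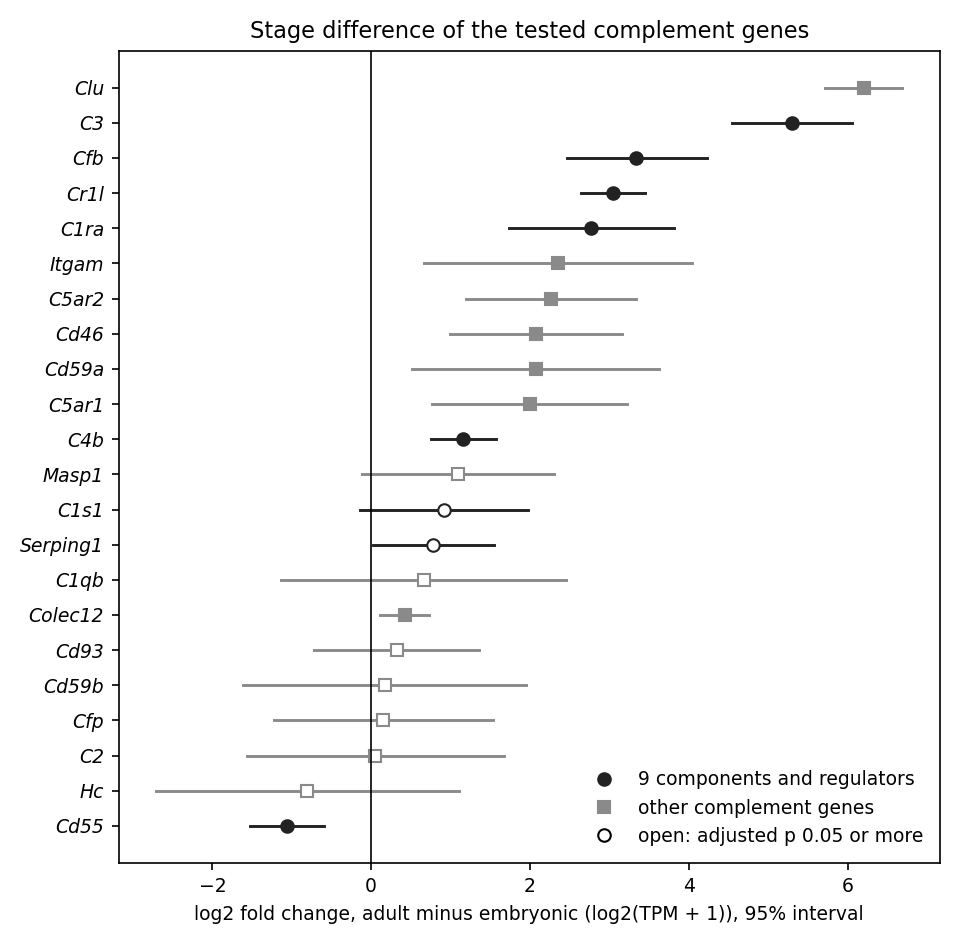
Log2 fold change, adult minus embryonic on the log2(TPM + 1) scale, with 95% intervals of limma before adjustment, for 22 complement genes that could be tested. Black circles are the 8 tested genes of the 9, gray squares the other complement genes, and open symbols did not pass the adjusted p of 0.05. *Clu* (6.20) and *C3* (5.30) lie at the top and *Cd55* (-1.06) is the filled symbol below 0. The value of *C5ar1*, listed at 0 in the embryonic samples, and those of other low genes depend on the pseudocount.

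Several cartilage matrix proteins are known to bind complement factors, among them COMP, fibromodulin (*Fmod*) and PRELP. Of 7 such genes, 5 rose and 0 fell in the adult samples by limma (23.9% and 21.4% over all genes tested), with 6 and 0 by p under 0.05 before adjustment. *Chad*, encoding chondroadherin, had embryonic values of 139, 115 and 118 TPM and adult values of 4667, 6557 and 4803 TPM (log2FC 5.40, limma, adjusted p = 1.3e-07). *Dcn* (decorin) had a log2 fold change of 4.44, *Omd* (osteomodulin) of 3.74, *Prelp* of 1.92 and *Comp* of 1.89, each past the threshold. *Fmod* had a difference of 0.49 (limma, adjusted p = 0.0678) and *Bgn* of 0.15 (limma, adjusted p = 0.525). *Fmod* passed without adult replicate 1 (adjusted p = 0.0311, range 0.0157 to 0.195), after quantile normalization (0.0157) and with the 20 highest genes taken out of the total (0.038). *Bgn* also passed without adult replicate 1 (adjusted p = 0.0334, range 0.0334 to 0.994).

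**Figure D3:**
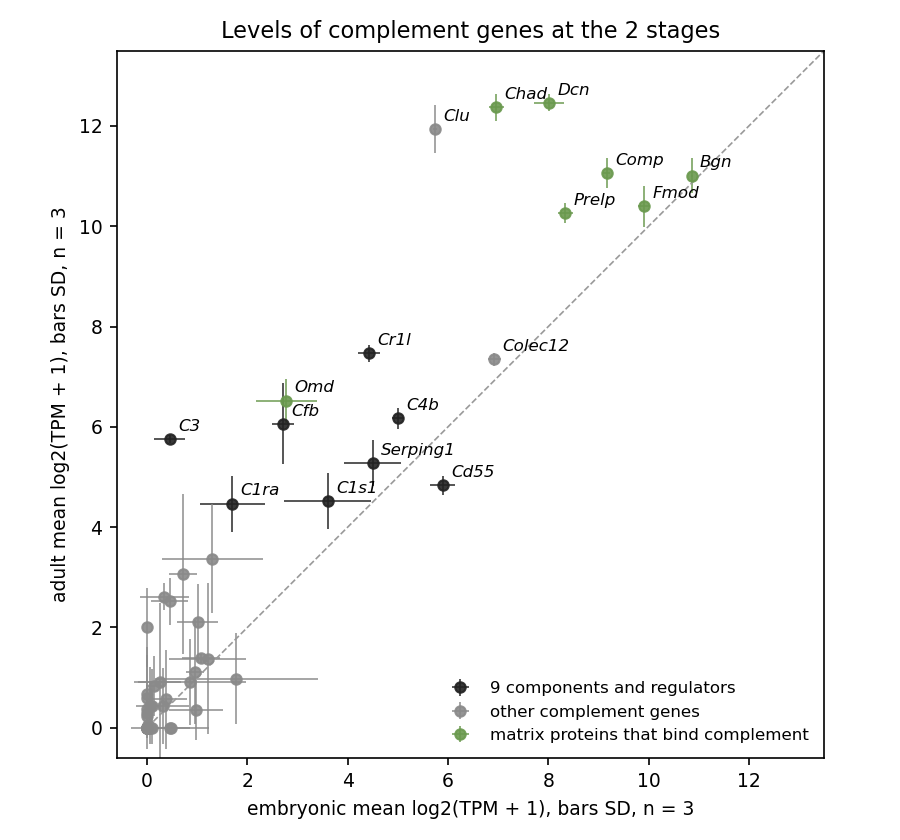
Mean log2(TPM + 1) in the embryonic (horizontal) and adult (vertical) samples for the 9 complement genes (black), the other complement genes (gray) and the matrix proteins that bind complement (green), with SD bars (n = 3) and a dashed line of equal level. *C3*, *Cfb*, *Cr1l* and *Clu* stand far above the line, and *Cd55* stands below it.

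Genes that carry signals known to induce complement transcription did not share a direction. Of 11 found, 4 rose and 3 fell in the adult samples, against 23.9% and 21.4% of all genes tested, and nothing particular to this list is read from these counts. *Cebpb*, a C/EBP transcription factor, rose by 1.31 (limma, adjusted p = 4.4e-05), from 209, 220.2 and 193 TPM to 538, 504 and 505 TPM. *Il6st*, the shared signaling chain of the IL-6 receptors, rose by 1.19 (limma, adjusted p = 7.2e-05). *Il1r1*, the IL-1 receptor, fell by 2.27 (limma, adjusted p = 2.4e-05), from 88.5, 82 and 92.2 TPM to 15.6, 17.8 and 18.8 TPM, and *Stat3* fell by 1.28 (limma, adjusted p = 1.0e-04). The interferon gamma receptor genes *Ifngr1* and *Ifngr2* rose by 0.80 and 0.88, while *Irf1*, a transcription factor gene induced by interferon gamma, fell by 1.49 (limma, adjusted p = 0.0113).

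The interferon-related calls were lost when some single samples were left out. The count of 4 that rose became 2 without embryonic replicate 1, embryonic replicate 3 or adult replicate 3. The adjusted p of *Ifngr1* was 0.0212 and reached 0.0676 (without embryonic replicate 3), and that of *Ifngr2* was 0.0374 and reached 0.12 (without embryonic replicate 1). With all samples kept, the *Ifngr2* call was also lost without the filter (adjusted p = 0.0566), after quantile normalization (0.0834), under scaling by the median of ratios (0.0733), with eBayes without trend (0.0546) and with the replicate block (0.0613). *Irf1* was at 0.0554 without embryonic replicate 1 and at 0.0564 without embryonic replicate 3, within a range of 0.00697 to 0.0564. *Il6ra*, *Tnfrsf1a*, *Nfkb1* and *Rela* did not pass the test, and *Nfkb1* passed it without adult replicate 3 (log2FC -0.53, adjusted p = 0.0236, range 0.016 to 0.167) and under scaling by the median of ratios (log2FC -0.56, adjusted p = 0.016).

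The 9 genes sit in part in known clusters of duplicated genes, and their neighbors were read with them. In the C1r and C1s interval on chromosome 6, neither neighbor outside the lists passed the test (*C1rl* 1.30, limma, adjusted p = 0.108, and *Lpcat3* 0.36, adjusted p = 0.43). In the C4 and factor B cluster on chromosome 17 (170 kb from 34728380 to 34898265), *Stk19*, *Dxo* and *Skiv2l* between *C4b* and *Cfb* rose by 0.88, 1.23 and 0.67 (limma, adjusted p = 0.0257, 0.0437 and 0.0406). These were 3 of 7 neighbors tested there, against 23.9% higher over all genes, and the alternatives were not run for neighbors outside the complement lists. The stages of *Dxo* overlapped, with 22.5 TPM in the first adult sample and 24.2 TPM in the first embryonic sample. *Nelfe*, directly beside *Cfb*, had a difference of -0.12 (limma, adjusted p = 0.643), and *C2*, on its other side, one of 0.05. *Tnxb* (0.65, adjusted p = 0.0586), *Zbtb12* (0.81, adjusted p = 0.3) and *Ehmt2* (-0.29, adjusted p = 0.25) did not pass the limma test. The change of *Cfb* (3.34) thus exceeded that of every other gene tested in this interval. Beside *Cr1l*, *Cd46* rose while *Cr2* held at most 0.851 TPM, and *A330023F24Rik*, next to *Cd46*, lay between 0 and 0.603 TPM in embryonic samples, against 15.3 to 46.6 TPM in adult ones (log2FC 4.59, limma, adjusted p = 1.3e-04). *Gpr108*, next to *C3*, rose by 1.29 (limma, adjusted p = 0.00183). Around *Cd55*, its neighbors *Cd55b*, *Zp3r* and *C4bp* were too low to test, and *Pfkfb2* beyond them rose by 0.99 (limma, adjusted p = 0.046).

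**Figure D4:**
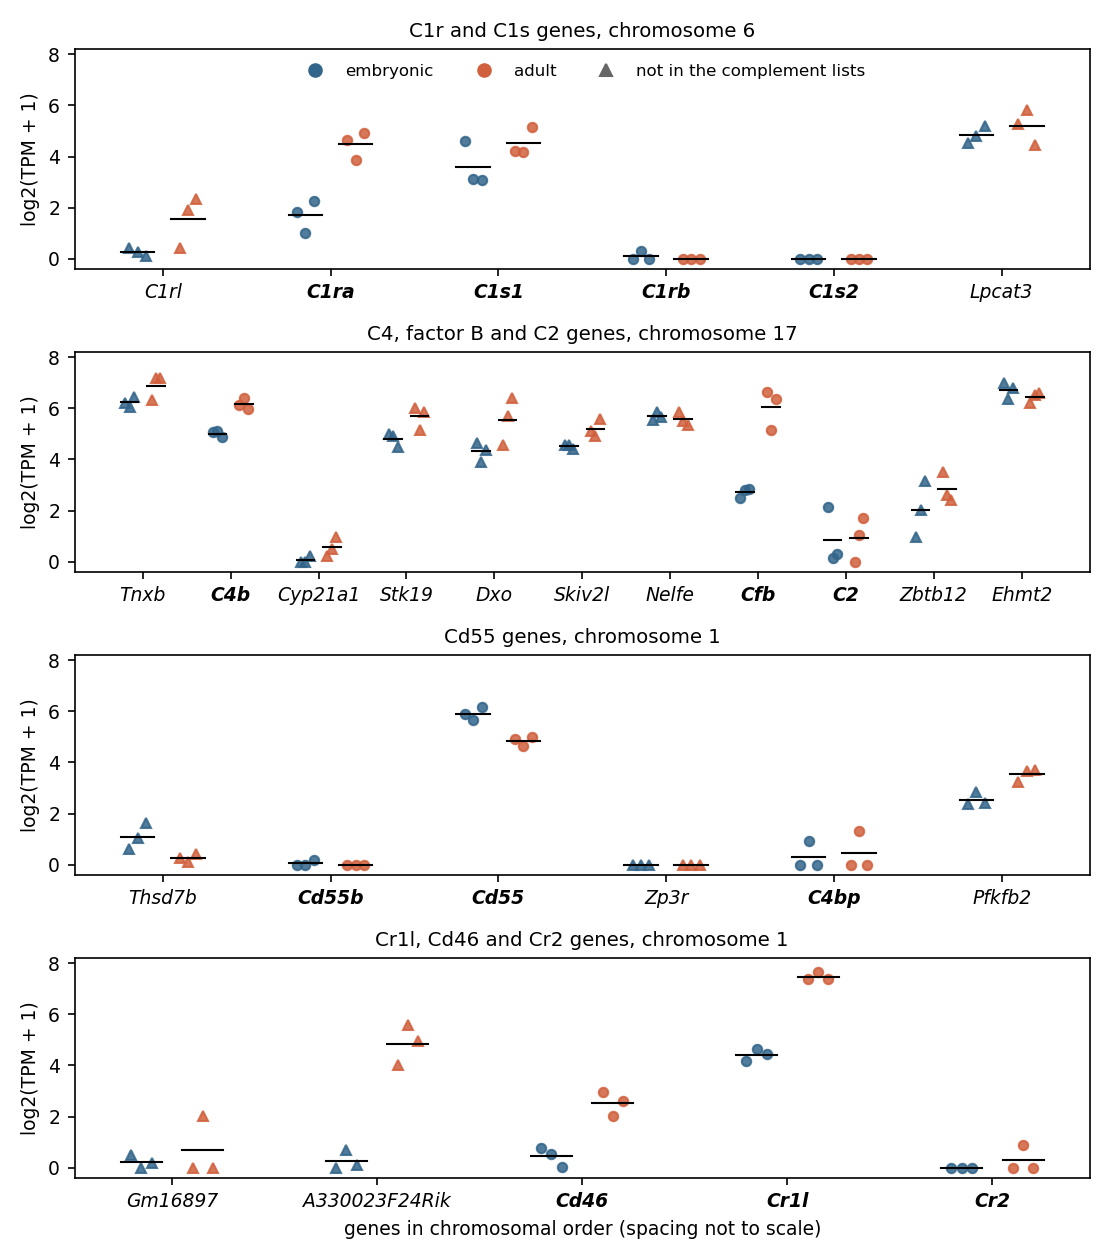
Level, as log2(TPM + 1), of genes in chromosomal order in 4 intervals that hold complement genes (bold names, circles) and other genes (triangles), for the 3 embryonic (blue) and 3 adult (orange) samples, with black lines at the means. *Cfb* and *Cr1l* separate by stage while *Nelfe* and *C2* beside *Cfb* do not, and *C1rb*, *C1s2* and *Cd55b* lie near 0.

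Over the 6 samples, the genes most like the mean of the standardized log2 values of the 8 tested genes were *Nav2* (Pearson's r 0.9979), *Antxr2* (0.9974), *Zfhx3* (0.9968), *Arap1* (0.9956) and *Hoxc5* (0.9955). The 6 points fall into 2 stages and the 8 genes are themselves part of the mean, and 665 genes reached an r of at least 0.95. Among the 8 genes r with their own mean ran from 0.991 for *C1ra* to -0.83 for *Cd55*.

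The sorted cells were checked against marker genes, to be read beside the 23.9% higher and 21.4% lower over all genes tested. Of 10 cartilage genes, 2 rose (*Sox9* and *Comp*), 7 fell and *Acan* did not pass the test, and together they held 25792 to 27759.6 TPM in the embryonic and 9899 to 12972 TPM in the adult samples. Of 10 leukocyte markers, 4 could be tested and *Cd14* and *Cd68* rose in the adult samples. *Cd14* alone went from 1.18, 6.89 and 6.12 TPM to 357, 458 and 364 TPM, and the other 9 markers held 7.97 to 14 TPM in the embryonic and 19.9 to 68.4 TPM in the adult samples. *Ptprc*, which encodes CD45, had embryonic values of 0, 0.0613 and 0 TPM and adult values of 2.29, 0 and 1.03 TPM, and *Adgre1* and *Tyrobp* held at most 0.322 TPM. *Lyz2* was at 30.7, 0.706 and 8.14 TPM in the adult samples, lowest in the second sample. *Itgam* and 4 of the 9 genes (*C1ra*, *C1s1*, *Cfb* and *Cd55*) were also lowest among the adult samples there, while *C3*, *C4b* and *Cr1l* were highest there. For *C1s1* the second and first adult samples were nearly equal, at 17.2 and 17.4 TPM. The part of *Lyz2* in the values of these genes was not tested.

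Of 8 fibroblast markers 5 fell and 0 rose in the adult samples by limma (5 and 0 at an unadjusted p under 0.05), against 21.4% and 23.9% of all genes tested. Their summed level was 9948 to 11688 TPM in the embryonic and 614 to 1369 TPM in the adult samples. Most of the embryonic sum was *Col1a1* (mean 5462 TPM, adult 470.2) and *Col3a1* (4764, adult 285). *Dpp4*, *Pi16* and *Cd34* also fell, while *Pdgfra*, *Thy1* and *Ly6a* did not pass the test. Of 6 osteoblast markers 4 rose, *Dmp1* fell and *Sp7* did not pass the test. Of those that rose, *Bglap* and *Bglap2* were listed at 0 in each embryonic sample. They reached the mean of 1 TPM only through adult values. *Bglap2* had adult values of 13.4, 0.26 and 43.9 TPM (limma, adjusted p = 0.0409). The summed level of the 6 markers went from 26.9 to 60.8 TPM to 285 to 476 TPM. Most of the adult sum was *Ibsp*, with embryonic values of 0.148, 29.6 and 5.07 TPM and adult values of 316, 235 and 308 TPM. *Alpl*, which encodes the ALP gated out in the sort, was among those that rose (log2FC 1.13, limma, adjusted p = 0.00292). The part of these markers in the complement values was not tested. Of 6 endothelial markers, 3 could be tested and *Tek* fell. Of 7 adipocyte markers only *Fabp4* could be tested and it did not pass, and the 5 hepatocyte markers found held a summed 3.26 TPM or less in every sample, with *Alb* listed at 0 in all 6.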

How the data were processed

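RNA from 6 mouse samples was converted to cDNA with random and poly(T) primers and sequenced as single-end reads of 50 bases, as the methods describe, while the labels name a Kapa mRNA-Seq kit. The authors mapped the reads to GRCm38 with RefSeq annotations, ran RSEM to estimate transcript levels, and the values the authors deposited are log2(TPM + 1). The versions and any filter on genes are not given in the sources used here. Since TPM is a share, it carries no depth, and precision rests on 3 samples per stage. The series description calls these biological replicates.

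All 6 columns were used. Gene symbols, positions and transcripts came from GENCODE M21 of GRCm38, and 21902 identifiers had a symbol. *C4a* and *Cebpd* were not analysed here, and 2 genes of the gene lists are not reported here and were left out of the list counts. Stages were compared with limma 3.58.1 in R 4.3.3 (eBayes with a trend) on the deposited log2 values (pseudocount 1), on genes whose mean over the 6 samples reached 1 TPM, with stage as the only term and a Benjamini-Hochberg adjusted p under 0.05 as the threshold. EBSeq, which the methods name, needs counts and was not used. The fit was tested on simulated data. Python 3.11.15 with pandas 2.3.3 and matplotlib 3.10.9 made the rest.

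The genes, gene lists and tests were chosen with earlier results of these data known. Named genes are the 9 genes, the lists, the neighbors and near-identical copies of the 9, the marker genes and the 5 genes most like their mean. Motifs and the within-sample differences were chosen after values were seen.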

Additional observations from a re-analysis of the deposited data

How the results depend on the processing

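Of the 6 genes called among the 9, each kept its direction and its call with the other pseudocount (0.1), without the filter, with a stricter one (5 TPM), with quantile or median-of-ratios scaling, with the 20 highest genes taken out of the total, with robust eBayes or eBayes lacking the trend, at an adjusted p under 0.01, with the replicate number as a block and each sample left out in turn. Leaving out samples moved the log2 fold change of *C1s1* between 0.59 and 1.42 and that of *Serping1* between 0.52 and 1.10. Same-numbered embryonic and adult samples did not deviate together (r -0.009, -0.017 and -0.022 across genes), so no pairing by number was seen. These values cannot exclude that same-numbered samples were handled together. With the replicate block *Serping1* passed at 0.78 (adjusted p = 0.0288).

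The count of other complement genes that rose was 7. It was 4 with a mean of at least 5 TPM or with eBayes without trend, 3 at an adjusted p under 0.01, and 4 to 6 over the samples left out. The count of inducing genes that rose was 4. It was 2 at an adjusted p under 0.01 and 2 to 4 over the samples left out.

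The differences that changed sign were not called. *C1qb* was at -0.25 to 1.11 over the samples left out. *C2* was at -0.001 with the median of ratios and -0.34 to 0.7 over the samples left out. *Cfp* was at -0.13 with a pseudocount of 0.1 and -0.4 to 0.63 over the samples left out. *Cd59b* was at -0.32 with a pseudocount of 0.1 and -0.63 to 0.86 over the samples left out. *Rela* was at 0.04 after quantile scaling, 0.04 with the 20 highest genes taken out and -0.2 to 0.07 over the samples left out. *Bgn* was at -0.002 with the median of ratios. Low levels in TPM without depth limit all of these values, and no counting error was computed. Further, *C4b*, *C1ra*, *C1s1* and *Cfb* share sequence with neighbors.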
